A study of Mus musculus with 16 samples.

Results

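Chemokines are small proteins that leukocytes secrete to steer the movement of other leukocytes that carry the matching receptor. Dendritic cells (DCs) use them to bring T cells, natural killer (NK) cells and monocytes into contact with the antigen that they present. The 10 chemokine genes described here are Ccl3, Ccl4, Ccl5, Ccl6, Ccl9, Ccl17, Ccl22, Cxcl9, Cxcl10 and Cxcl16, chosen by name from the 18232 genes of the RNA-seq tables of splenic DCs. All 10 were listed in the table of plasmacytoid DCs (pDCs) and in that of conventional DCs (cDCs).

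The DCs came from spleens of C57BL/6 mice aged 6 to 8 weeks, all of which carried floxed Trim33 alleles (Trim33 fl/fl). WT mice had no Cre, while cKO mice also carried Itgax-Cre, in which the promoter of the CD11c gene drives the recombinase, so that deletion is limited to cells that have turned on CD11c. The genotype label of the cKO libraries reads Trim33-/-, although only CD11c-expressing cells were targeted. Sorted pDCs were positive for SiglecH and CD11c. Both cDC gates took SiglecH-negative cells with CD11c and MHC II, and the cDC1s among them had CD24 without CD172a, the cDC2s CD172a without CD24. Each genotype was represented by 3 libraries of pDCs, 2 of cDC1s and 3 of cDC2s, 16 in all. The labels call them biological replicates, and by the study's legend of these data each was pooled from several mice, with more mice for a cKO than for a WT library. The question put to these libraries was which genes depend on TRIM33, a chromatin-bound regulator of transcription, in each DC subset.

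As background, the 10 genes fall into families by receptor. CCL3, CCL4 and CCL5 are inflammatory chemokines that act on T cells, NK cells and monocytes. CCL6 and CCL9 are CCR1 ligands of myeloid cells found in rodents. CCL17 and CCL22 bind CCR4 on regulatory and helper T cells and are made above all by DCs. CXCL9 and CXCL10 are induced by interferon and bind CXCR3 on effector T cells and NK cells, and CXCL16 is made as a membrane-bound protein that binds CXCR6. Among cDCs, the cDC1 subset is known for cross-presentation and for CXCL9 and CXCL10, and mature DCs of both subsets for CCL22, CCL17 and CCL5.

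Expression is given as TPM, the share of transcripts after correction for their length, so that levels can be compared between genes. Depth was estimated at about 17880000 to 20100000 reads per library, at which 3 reads on a transcript of 1 kb correspond to 0.289 to 0.383 TPM, a limit that covers counting error only. Trim33 ranged from 20.6 to 23.8 TPM in WT pDCs and from 11.7 to 16.5 in cKO pDCs, from 15.5 to 18.2 against 7.71 to 7.88 in cDC1s, and from 17.2 to 20.6 against 7.13 to 8.07 in cDC2s, and it was called lower in cDC1s and cDC2s (adjusted p = 3.49e-04 and 1.26e-04) but not in pDCs (adjusted p = 0.0301). The 8 pDC markers summed to 17448 to 19451 TPM in pDCs and to at most 269 in cDCs, and 7 of 8 cDC1 markers were higher and 8 of 8 cDC2 markers lower in WT cDC1s than in WT cDC2s. The cDC2 markers did not set pDCs apart from cDC2s, at sums of 1193 to 1384 TPM in pDCs and 1320 to 1525 TPM in cDC2s, and the cDC1 markers summed to 322 to 472 TPM in pDCs, above the 161 to 216 TPM of cDC2s. Of the 8 cDC1 markers, 3 were called lower in cKO than in WT cDC1s (Itgae, Cadm1 and Clec9a), where 6.56% of all genes tested were. Upward changes were seen in 3 of the 8, with 0 called higher. A pair of WT libraries had the highest sums of immediate-early genes, which cells switch on within minutes of handling or stimulation, in their groups. The 11 genes summed to 10278 TPM in WT cDC1 replicate 2 against 5860 in replicate 1. In WT cDC2 replicate 1 they summed to 21330 TPM, against 7425 and 9429 in the others. Single libraries were not tested, and with 2 WT cDC1 libraries neither can be called the unusual one. The results for Ccl3 and Ccl4 touch on this pair and are given with and without it.

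The genes sit close together in the genome (GRCm38.p6, RefSeq). Ccl5 (chr11:83525778-83530518), Ccl9 (chr11:83572917-83578636), Ccl6 (chr11:83587886-83593087), Ccl3 (chr11:83647843-83649378) and Ccl4 (chr11:83648624-83664683) form the CC cluster of chromosome 11. Ccl22 (chr8:94745684-94751388) and Ccl17 (chr8:94809380-94812038) flank Cx3cl1 on chromosome 8. Cxcl9 (chr5:92321331-92328079) and Cxcl10 (chr5:92346638-92348889) are neighbours on chromosome 5, whereas Cxcl16 (chr11:70454389-70459984) lies outside the clusters. Promoters, from 250 bases before to 50 bases after a start point of the gene, were found in RefSeq for 7 of the 10 genes. Those of Cxcl10, Cxcl9 and Ccl22 are shown because Cxcl9 and Cxcl10 are neighbours with unlike patterns over the subsets, and because Ccl22 had the largest difference among the 10 genes between the genotype effects in cDC1s and cDC2s. Capitals mark matches to the motifs searched on both strands, which were AP-1 (TGANTCA), the ISRE core bound by interferon-regulated factors, GAS (TTCNNNGAA), PU.1 (GAGGAAG), the TATA box (TATAAA) and the kappaB site of the NF-kappaB factors. They are Cxcl10 on the minus strand of chr5:92348840-92349139, Cxcl9 on the minus strand of chr5:92328030-92328329, and Ccl22 on the plus strand of chr8:94745434-94745733.
Cxcl10: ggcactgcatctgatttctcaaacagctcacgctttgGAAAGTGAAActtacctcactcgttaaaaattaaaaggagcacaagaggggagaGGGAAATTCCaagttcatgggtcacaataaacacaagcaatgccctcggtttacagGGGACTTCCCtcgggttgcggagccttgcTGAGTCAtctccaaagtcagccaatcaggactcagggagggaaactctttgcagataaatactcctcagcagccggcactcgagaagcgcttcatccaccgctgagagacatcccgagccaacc
Cxcl9: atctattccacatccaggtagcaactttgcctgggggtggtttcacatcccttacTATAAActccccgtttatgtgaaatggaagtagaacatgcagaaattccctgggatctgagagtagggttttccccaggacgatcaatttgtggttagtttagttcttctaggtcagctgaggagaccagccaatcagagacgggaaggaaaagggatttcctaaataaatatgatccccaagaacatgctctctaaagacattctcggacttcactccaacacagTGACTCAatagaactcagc
Ccl22: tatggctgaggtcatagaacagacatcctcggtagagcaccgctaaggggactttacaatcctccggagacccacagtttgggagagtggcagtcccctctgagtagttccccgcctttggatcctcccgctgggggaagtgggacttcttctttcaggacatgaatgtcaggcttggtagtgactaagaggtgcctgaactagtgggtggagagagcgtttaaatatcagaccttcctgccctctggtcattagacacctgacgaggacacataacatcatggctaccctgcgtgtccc
The Cxcl10 window held an ISRE core at -213, kappaB matches at -159 and -103 and AP-1 at -74, counted from the start of the gene. The Cxcl9 window held a TATA box match at -195 and AP-1 at 32, and the Ccl22 window none of the 6 motifs, as also those of Ccl3 and Ccl6. The Ccl17 window (chr8:94810203-94810502) lies inside the span given above for the gene, and held GAS at -99 from that window's own start point. In the Ccl9 window, shown in the next paragraph without these marks, were TATA box matches at -224, -94 and -92 of which the last 2 overlap, AP-1 at -53 and kappaB at -35. Of all 32851 promoters of this length, 4.51% held kappaB, 3.44% the ISRE core, 8.30% GAS, 13.6% PU.1, 7.81% AP-1 and 13.6% the TATA box. A match describes letters only and does not show that a factor binds there.

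Ccl6 and Ccl9 are shown as a pair because their promoters had the highest local alignment score of the 21 pairs, 37 (match 1, mismatch -1, gap -2), and because both genes were higher in cDC2s than in cDC1s. Capitals mark the aligned stretch, of which 59 of 74 columns were identical, 79.7%, with 7 gaps. It runs from -59 to 15 in Ccl6 (minus strand of chr11:83593038-83593337) and from -18 to 49 in Ccl9 (minus strand of chr11:83578587-83578886).
Ccl6: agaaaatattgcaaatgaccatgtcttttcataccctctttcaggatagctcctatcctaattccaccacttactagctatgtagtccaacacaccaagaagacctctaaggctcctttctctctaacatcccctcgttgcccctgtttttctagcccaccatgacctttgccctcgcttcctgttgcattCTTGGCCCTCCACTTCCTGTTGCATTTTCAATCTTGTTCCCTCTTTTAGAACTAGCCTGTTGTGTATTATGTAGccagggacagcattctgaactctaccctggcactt
Ccl9: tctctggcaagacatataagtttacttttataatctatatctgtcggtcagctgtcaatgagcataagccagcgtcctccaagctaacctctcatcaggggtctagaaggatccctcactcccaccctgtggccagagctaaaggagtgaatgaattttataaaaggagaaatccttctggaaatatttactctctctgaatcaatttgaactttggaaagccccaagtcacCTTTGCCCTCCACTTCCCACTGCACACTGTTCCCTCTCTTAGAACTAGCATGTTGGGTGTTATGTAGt
The next score, 19, was that of Cxcl9 and Cxcl10, over 97 columns of which 62 were identical, 63.9%. Percent identity was higher in some of the shorter alignments, up to 91.7% over 12 columns.

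Each DC subset expressed its own mix of these genes. In pDCs, Ccl4 and Ccl3 together made up 88.5% to 95.4% of the summed TPM of the 10 genes in every library. WT cDC1s expressed mainly Ccl5, Cxcl9, Cxcl16 and Ccl22, in that order of mean TPM, and WT cDC2s mainly Ccl5, Ccl3 and Ccl4. The mean sum was 1489 TPM in WT cDC1s and 463 in cKO cDC1s, 1682 in WT cDC2s and 1023 in cKO cDC2s, and 496 in WT pDCs and 380 in cKO pDCs. By library, the sum was 1786 and 1193 TPM in WT cDC1s against 417 and 510 in cKO cDC1s, and 1964, 1557 and 1525 TPM in WT cDC2s against 907, 1024 and 1136 in cKO cDC2s, so that genotypes did not overlap in either cDC subset. In pDCs they did, at 379, 686 and 424 TPM in WT and 258, 501 and 380 in cKO. The leading gene of cDC1s changed with genotype, from Ccl5 (41.8% of the sum of the means) in WT to Cxcl9 (41.2%) in cKO, while Ccl5 still led in cKO cDC2s at 43.5%, against 58.1% in WT. The pDC and cDC tables were normalized separately by the authors, so levels are set side by side across them with no test.

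**Figure D1:**
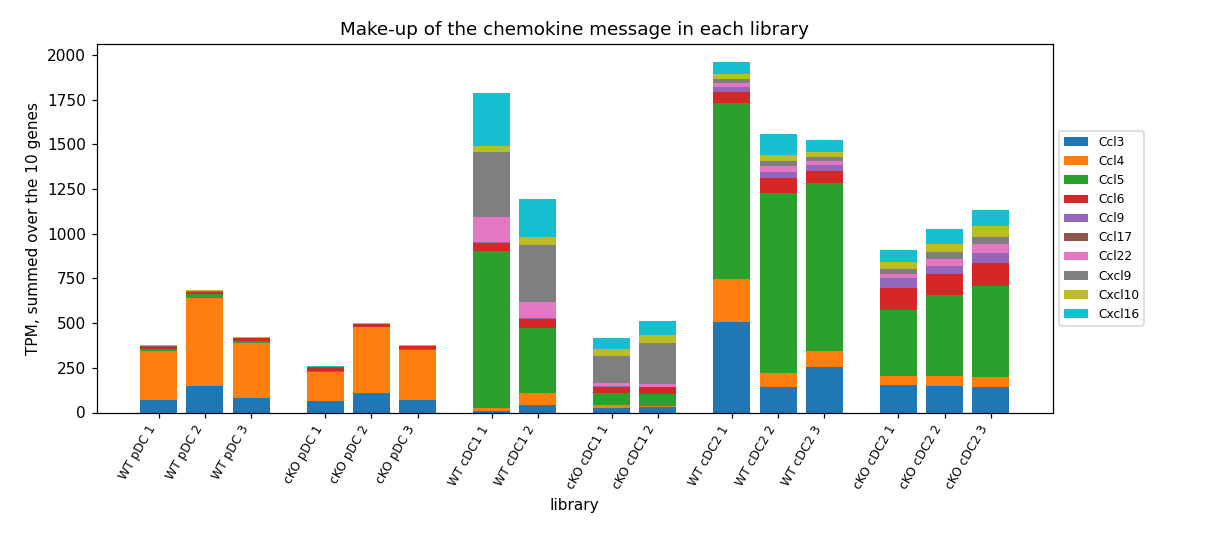
Summed TPM of the 10 chemokine genes (y axis) in each of the 16 libraries (x axis), with 1 coloured segment per gene. The pDC bars are mostly Ccl4 and Ccl3, and the cKO cDC1 bars reach 417 and 510 TPM, below the 1193 and 1786 TPM of WT cDC1s.

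To compare genotypes, limma was fitted to log2(TPM + 1) over all genes with a mean of at least 1 TPM, and the threshold for a call was an adjusted p no higher than 0.01 together with a log2 fold change of 0.5 or more in size. In cDC1s, 3 of the 10 chemokine genes fell in cKO (Ccl5, Ccl22 and Cxcl16) and 0 rose, where 6.56% of the 11411 genes tested were called lower and 15.8% higher. Their median log2 fold change was -0.60, against 0.17 over all genes tested. In cDC2s, 2 of the 10 rose (Ccl6 and Cxcl10) and 0 fell, where 3.59% of all genes were called higher and 3.56% lower, with a median of 0.23 against -0.03. In pDCs, 7 of the 10 passed the filter on low values and 0 were called, where 0.814% of 11299 genes were called higher and 0.239% lower. By limma, 2 of the 7 had an unadjusted p below 0.05, a share that was not counted over all genes. For the difference between the subsets (the cDC1 effect minus the cDC2 effect), 2 of the 10 were called lower (Ccl22 and Ccl6), where 1.35% of all genes were called lower and 1.21% higher, with a median of -0.93 against 0.22. The cDC1 and cDC2 contrasts share an estimate of the spread, and the difference is built from both. Over all genes, the balance of calls moved with the scaling: in cDC1s 70.7% of the calls were higher in cKO as deposited but 50% after median-of-ratios scaling, in cDC2s 50.2% and 60.4%, and for the difference 47.3% and 26.3%. That scaling moved the median of all genes in cDC1s from 0.17 to 0.02, and for the difference from 0.22 to 0.01. In bulk libraries such as these, fewer cells of a type that makes a message and less of it per cell cannot be told apart.

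**Figure D2:**
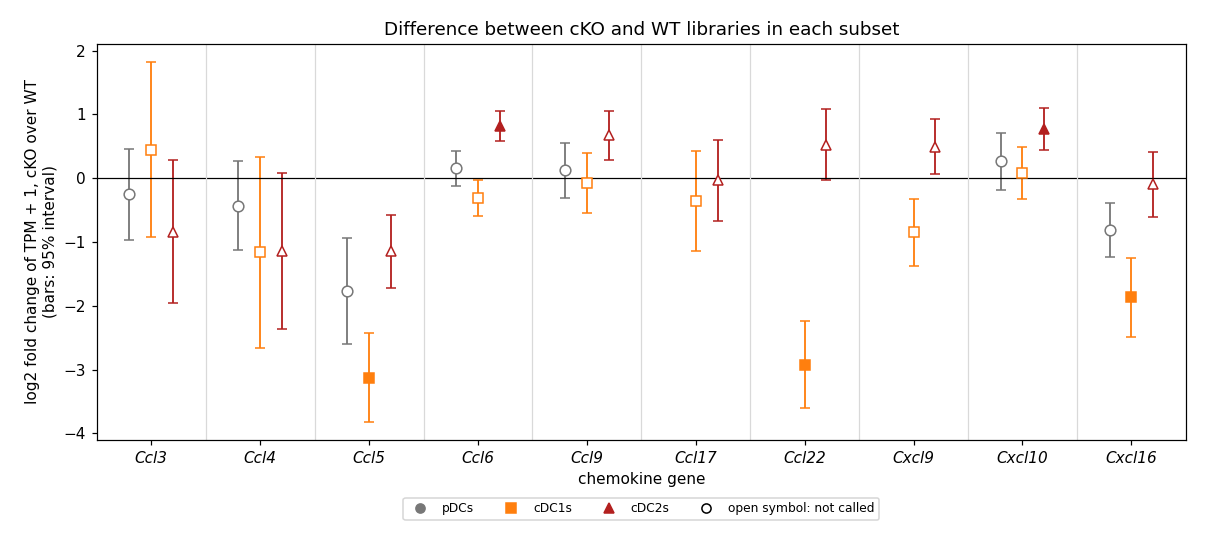
Log2 fold change of TPM + 1, cKO over WT (y axis), for each chemokine gene (x axis) in pDCs, cDC1s and cDC2s, with 95% intervals from limma as bars and filled symbols for called genes. Filled symbols below 0 are Ccl5, Ccl22 and Cxcl16 in cDC1s and those above 0 are Ccl6 and Cxcl10 in cDC2s, while genes under the filter in pDCs have no symbol.

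Ccl5, which encodes RANTES, a chemokine that attracts T cells and monocytes, was the most abundant chemokine message in cDC2s of both genotypes and in WT cDC1s. In cDC1s it measured 881 and 364 TPM in the WT libraries against 63.8 and 64.4 TPM in the cKO libraries. Both cKO libraries lay far below both WT ones, and the WT replicates differed widely from each other. The mean fell from 623 ± 366 TPM (SD, n = 2) to 64.1 ± 0.46 TPM (SD, n = 2), 9.71-fold lower in cKO (log2 fold change on TPM + 1, written below as the log2 value, of -3.12, SE 0.31, adjusted p = 1.08e-04). Without WT cDC1 replicate 1 the log2 value was -2.49 and without WT cDC1 replicate 2 it was -3.76, both still called. In cDC2s the values were 985, 1008 and 941 TPM in WT and 374, 454 and 508 TPM in cKO, again with no overlap. The means of 978 ± 33.7 and 445 ± 67.6 TPM (SD, n = 3 each) differed 2.2-fold, and the log2 value was -1.14 (SE 0.26, adjusted p = 0.0127), which missed the threshold. It passed when the cDC2 libraries were fitted alone (adjusted p = 0.00181), and also without WT cDC1 replicate 1 or without replicate 2 (adjusted p = 4.18e-04 and 4.22e-04), whose spread enters the shared estimate.

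The effect on Ccl5 was larger in cDC1s than in cDC2s by 1.98 on the log2 scale (difference -1.98, SE 0.40, adjusted p = 0.0162), which was not called. Without WT cDC1 replicate 2, the lower of the WT cDC1 libraries, the difference was -2.62 and was called (adjusted p = 3.52e-04), and without replicate 1 it was -1.34 and was not. In pDCs Ccl5 was a minor message, at 7.59, 22.1 and 11.5 TPM in WT and 2.61, 2.16 and 4.49 TPM in cKO. The genotypes did not overlap there either, and the means of 13.7 ± 7.51 and 3.09 ± 1.24 TPM (SD, n = 3 each) differed 4.45-fold, and the log2 value was -1.77 (SE 0.36, adjusted p = 0.0366), which was not called. By mean level the order was WT cDC2, WT cDC1, cKO cDC2, cKO cDC1, WT pDC and cKO pDC, and the libraries of WT cDC1s overlapped those of cKO cDC2s. T cells and NK cells are also rich sources of CCL5. The 8 NK markers summed to 1.39 to 10.4 TPM over all 16 libraries, with the NK receptor gene Ncr1 at 0.66 TPM at most, and 0 of 2 tested called in cDC1s or cDC2s. Of the T cell markers, Cd3e, a subunit of the T cell receptor complex, reached 1.11 TPM at most. The 9 T cell markers in the tables summed to 10.1 to 19.6 TPM in cDC1s, but to 288 to 397 TPM in WT and 133 to 162 TPM in cKO cDC2s and to 756 to 1145 TPM in pDCs, where Cd4, which DCs also express, was the highest of them. Of the T cell markers tested, Cd4 was called lower in cKO cDC1s and in cKO cDC2s, 1 of 4 in each, and Thy1 higher in cKO pDCs, 1 of 5, at 37.4 ± 9.31 TPM against 9.11 ± 2.78 TPM in WT (SD, n = 3 each). Of all genes tested, 6.56% were called lower in cDC1s and 3.56% in cDC2s, and 0.814% higher in pDCs. The part of these markers in the values of Ccl5 was not tested.

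**Figure D3:**
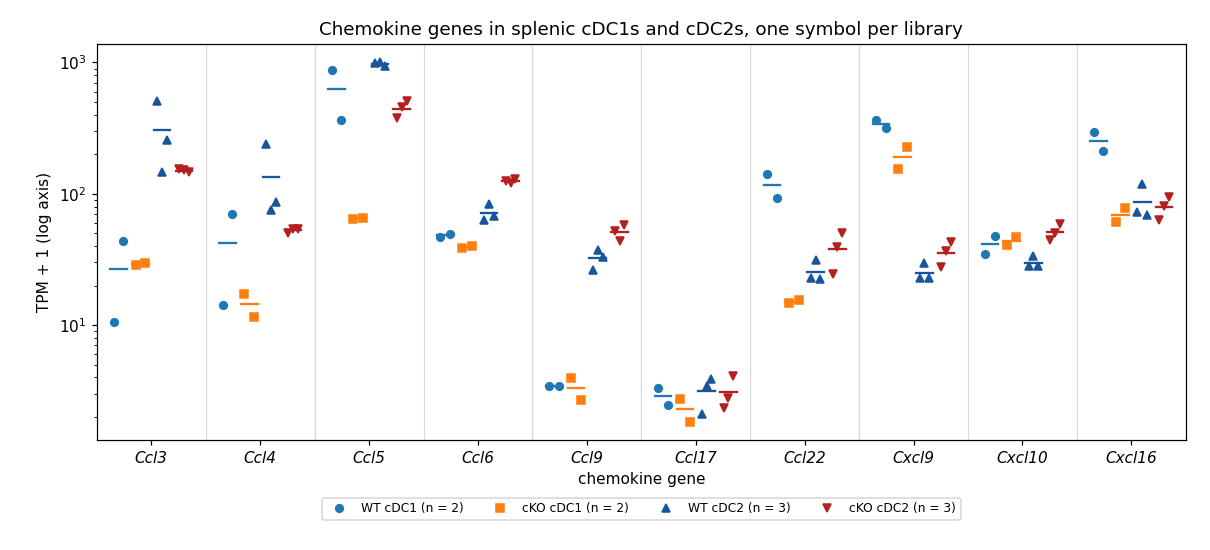
TPM + 1 on a log axis (y axis) of each chemokine gene (x axis) in cDC1s and cDC2s, with 1 symbol per library and a line at the group mean. The cKO cDC1 symbols lie below the WT cDC1 ones for Ccl5, Ccl22, Cxcl16 and Cxcl9, and the cKO cDC2 symbols above the WT cDC2 ones for Ccl6, Ccl9 and Cxcl10.

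Ccl3 and Ccl4 encode MIP-1alpha and MIP-1beta, inflammatory chemokines of which CCL3 binds CCR1. They were the main chemokine messages of pDCs. Ccl4 measured 278, 489 and 305 TPM in WT pDCs and 167, 369 and 276 TPM in cKO pDCs, and Ccl3 67.2, 150 and 82.2 TPM in WT and 61.6, 109 and 72.7 TPM in cKO. For both genes replicate 2 was the highest library in each genotype, and WT and cKO overlapped. The log2 fold change in pDCs was -0.43 for Ccl4 (95% interval -1.13 to 0.27, adjusted p = 0.469) and -0.25 for Ccl3 (95% interval -0.96 to 0.46, adjusted p = 0.682). The adjusted p with the replicate number as a block, which assumes that same-numbered pDC libraries are pairs, was 0.0339 for Ccl4 and 0.0633 for Ccl3. Neither was called. Without WT pDC replicate 2 the Ccl3 value turned to 0.08.

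In cDCs, Ccl3 was a cDC2 message. It measured 509, 145 and 257 TPM in WT cDC2s and 152, 150 and 145 TPM in cKO cDC2s, against 9.49 and 42.4 TPM in WT cDC1s and 27.6 and 28.6 TPM in cKO cDC1s. The highest value of each WT subset, 509 and 42.4 TPM, came from the library with high immediate-early genes. In WT mice the mean was 11.7-fold higher in cDC2s than in cDC1s (log2 difference cDC1 over cDC2 -3.65, SE 0.56, adjusted p = 4.16e-04), at -2.63 without WT cDC1 replicate 1 and -4.67 without replicate 2, both still called. In cKO it was 5.31-fold higher (-2.37, SE 0.56, adjusted p = 0.00647), a call that was lost in 7 of 19 alternatives, among them leaving out any cKO cDC1 or cKO cDC2 library, with an adjusted p of 0.0446 at most without cKO cDC1 replicate 1. Genotype gave a log2 fold change of 0.45 in cDC1s (95% interval -0.93 to 1.82, adjusted p = 0.597) and -0.84 in cDC2s (95% interval -1.96 to 0.29, adjusted p = 0.272). Without both libraries with high immediate-early genes, Ccl3 was called higher in cKO cDC1s (1.47, SE 0.27, adjusted p = 0.00536), with a single WT cDC1 library of 9.49 TPM left, which was assumed to vary like the other groups. Without WT cDC1 replicate 1 the sign turned (-0.58, adjusted p = 0.451).

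Ccl4 in cDC2s measured 239, 74.5 and 86.3 TPM in WT and 49.5, 53.0 and 53.2 TPM in cKO. Every cKO cDC2 library was below every WT one, with means of 133 ± 91.7 and 51.9 ± 2.08 TPM (SD, n = 3 each), and the log2 value was -1.14 (SE 0.55, adjusted p = 0.173), which was not called. WT cDC1s measured 13.3 and 68.7 TPM and cKO cDC1s 16.4 and 10.5 TPM, which overlapped (log2 fold change -1.16, 95% interval -2.66 to 0.34, adjusted p = 0.197). Here too the library with high immediate-early genes was the highest of its group in each WT subset. Ccl4 was higher in cDC2s than in cDC1s by 3.25-fold in WT (adjusted p = 0.0273) and 3.86-fold in cKO (adjusted p = 0.0285), neither of which was called. Without WT cDC1 replicate 1 the WT log2 difference was -0.74. Both passed without WT cDC1 replicate 2 (adjusted p = 0.00176 and 0.00512) and without both libraries (adjusted p = 6.79e-05 and 4.38e-05), and the cKO difference also passed without WT cDC1 replicate 1 (adjusted p = 0.00507).

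Ccl6 and Ccl9, the CCR1 ligands, were highest in cKO cDC2s. Ccl6 in cDC2s measured 62.1, 83.0 and 66.7 TPM in WT and 124, 121 and 128 TPM in cKO. All cKO libraries lay above all WT ones and close to each other. The mean rose 1.76-fold, from 70.6 ± 11 to 124 ± 3.60 TPM, SD with n = 3 each (log2 value 0.82, SE 0.11, adjusted p = 9.58e-04), and the call held in all 20 alternatives. In cDC1s the values were 46.3 and 48.7 TPM in WT and 37.4 and 38.9 TPM in cKO, lower in cKO with no overlap, but the log2 fold change of -0.31 (SE 0.13, adjusted p = 0.0833) was not called. The effect therefore differed between the subsets, by -1.13 (SE 0.17, adjusted p = 0.00368), a call lost in 7 of 19 alternatives, among them leaving out any cDC1 library of either genotype or cKO cDC2 replicate 1 or 3, with an adjusted p of 0.0297 at most without cKO cDC1 replicate 1. In pDCs Ccl6 ranged from 13.9 to 16.8 TPM in WT and from 14.5 to 18.7 TPM in cKO (log2 fold change 0.16, 95% interval -0.12 to 0.43, adjusted p = 0.508).

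Ccl9 had a similar outline in cDC2s, at 25.2, 36.3 and 32.3 TPM in WT and 51.0, 42.9 and 56.6 TPM in cKO. The genotypes did not overlap, the means of 31.3 ± 5.58 and 50.1 ± 6.89 TPM (SD, n = 3 each) differed 1.60-fold, and the log2 fold change of 0.67 (SE 0.17, adjusted p = 0.0231) was not called. It was called with median-of-ratios scaling (adjusted p = 0.00905) and on FPKM (adjusted p = 0.00959). In cDC1s Ccl9 was low in both genotypes, at 2.45 and 2.42 TPM in WT and 2.93 and 1.71 TPM in cKO. The gene thus separated the subsets: it was 12.8-fold higher in cDC2s than in cDC1s in WT (log2 difference -3.22, SE 0.19, adjusted p = 4.26e-07) and 21.6-fold higher in cKO (-3.96, SE 0.19, adjusted p = 1.49e-07). In pDCs it ranged from 1.21 to 2.31 TPM. Monocytes and macrophages express Ccl6 and Ccl9 as well, and their 14 markers summed to 1460 to 2145 TPM in WT cDC2s and to 2811 to 3769 TPM in cKO cDC2s, with Csf1r, Fcgr1 and Lyz2 called higher, 3 of 14, and none of the 14 at 0. Of the 8 cDC2 markers, 3 were called higher in cKO cDC2s (Clec10a, Itgam and Mgl2) and 2 lower (Esam and Irf4). Over all genes tested, 3.59% were called higher and 3.56% lower. The part of either set of markers in the rise of Ccl6 was not tested.

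Ccl22, whose protein MDC attracts CCR4-bearing T cells, had the largest difference of the 10 genes between its genotype effects in the cDC subsets. In cDC1s it measured 140 and 91.8 TPM in WT and 13.6 and 14.5 TPM in cKO. Both cKO libraries were far below both WT libraries. The mean fell 8.22-fold, from 116 ± 33.9 to 14.1 ± 0.63 TPM (SD, n = 2 each; log2 value -2.92, SE 0.31, adjusted p = 1.37e-04). In cDC2s the values were 21.9, 30.3 and 21.6 TPM in WT and 23.5, 38.3 and 49.0 TPM in cKO, which overlapped (log2 fold change 0.53, 95% interval -0.03 to 1.09, adjusted p = 0.170). The effect in cDC1s was thus lower than in cDC2s by 3.45 on the log2 scale (difference -3.45, SE 0.40, adjusted p = 0.00102). Both the cDC1 call and the call on the difference held in every alternative tried, 20 and 19 in number.

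The order of the subsets turned with genotype. In WT, Ccl22 was 4.71-fold higher in cDC1s than in cDC2s (log2 difference 2.18, SE 0.28, adjusted p = 1.22e-04), and in cKO it was 2.62-fold higher in cDC2s than in cDC1s (-1.27, SE 0.28, adjusted p = 0.00429). The cKO call was lost in 6 of 19 alternatives, among them leaving out either cKO cDC1 library or cKO cDC2 replicate 2 or 3, with an adjusted p of 0.0372 at most without cKO cDC1 replicate 1. In pDCs Ccl22 was low, at 1.01, 1.60 and 1.21 TPM in WT, about 18.2, 29.2 and 21.6 reads, and 0.26, 0 and 0.13 TPM in cKO, about 4.9, 0 and 2.5 reads. The pDC libraries did not overlap, but the gene was under the filter on low values, and without a filter the adjusted p was 0.0217, not called.

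Ccl17, the other CCR4 ligand, was scarce everywhere. It measured 2.32 and 1.48 TPM in WT cDC1s, 1.74 and 0.83 TPM in cKO cDC1s, 1.12, 2.46 and 2.87 TPM in WT cDC2s and 1.33, 1.77 and 3.11 TPM in cKO cDC2s. All 4 cDC groups overlapped. The log2 fold change was -0.36 in cDC1s (95% interval -1.14 to 0.42, adjusted p = 0.445) and -0.03 in cDC2s (95% interval -0.67 to 0.60, adjusted p = 0.950). In pDCs it reached 0.51 TPM in WT and 0.49 TPM in cKO, about 2 reads at most. Cx3cl1, the fractalkine gene that lies between Ccl22 and Ccl17, was also low, at a mean of 2.84 ± 1.00 TPM in WT cDC1s and 0.93 ± 0.29 TPM in cKO cDC1s (SD, n = 2 each).

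Cxcl9 was the clearest cDC1 message of the 10. It measured 361 and 316 TPM in WT cDC1s and 154 and 228 TPM in cKO cDC1s, against 21.7, 28.7 and 21.7 TPM in WT cDC2s and 26.5, 35.5 and 41.8 TPM in cKO cDC2s. Every cDC1 library was above every cDC2 library. The gene was 14.1-fold higher in cDC1s than in cDC2s in WT (log2 difference 3.77, SE 0.21, adjusted p = 2.94e-07) and 5.52-fold higher in cKO (2.43, SE 0.21, adjusted p = 9.46e-06). Within cDC1s the cKO libraries lay below the WT ones, with means of 339 ± 31.6 and 191 ± 52.2 TPM (SD, n = 2 each), and the log2 fold change of -0.85 (SE 0.24, adjusted p = 0.0170) was not called. In cDC2s the genotypes overlapped (0.50, 95% interval 0.07 to 0.92, adjusted p = 0.0979), and the difference between the effects, -1.34 (SE 0.30, adjusted p = 0.0237), was not called. In pDCs Cxcl9 was near 1 TPM, at 0.93, 1.35 and 1.09 TPM in WT and 0.78, 0.62 and 0.61 TPM in cKO.

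Cxcl10, which shares the receptor CXCR3 with Cxcl9, did not share its pattern. Cxcl10 in cDC2s measured 27.1, 32.8 and 27.1 TPM in WT and 43.6, 49.0 and 57.9 TPM in cKO. All cKO libraries were above all WT ones. The mean rose 1.73-fold, from 29.0 ± 3.27 to 50.2 ± 7.23 TPM (SD, n = 3 each; log2 value 0.77, SE 0.15, adjusted p = 0.00666). The call was lost in 10 of 20 alternatives, among them leaving out any of the 3 cKO cDC2 libraries, any cKO cDC1 library or WT cDC2 replicate 1 or 3, with an adjusted p of 0.0339 at most without cKO cDC2 replicate 3. In cDC1s the values were 34.1 and 47.1 TPM in WT and 39.5 and 45.8 TPM in cKO (log2 fold change 0.08, 95% interval -0.32 to 0.49, adjusted p = 0.743), and in pDCs 4.83, 2.68 and 2.81 TPM in WT and 4.36, 3.86 and 4.45 TPM in cKO (0.27, 95% interval -0.18 to 0.71, adjusted p = 0.478). Between the WT subsets Cxcl10 was 1.40-fold higher in cDC1s (adjusted p = 0.0415), which was not called. The ratio of Cxcl9 to Cxcl10 in TPM was 10.6 and 6.71 in the WT cDC1 libraries, 3.91 and 4.98 in the cKO cDC1 libraries, and between 0.608 and 0.876 in all 6 cDC2 libraries. A share of 5.54% of the 50-base words of Cxcl10 transcripts also occurs in Art3, whose gene overlaps it and which was at a mean of at most 1.17 TPM in cDCs.

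Cxcl16, the membrane-bound ligand of CXCR6, fell in cKO cDC1s. It measured 296 and 210 TPM in WT cDC1s and 59.8 and 76.9 TPM in cKO cDC1s. The genotypes were far apart, with means of 253 ± 60.7 and 68.3 ± 12.1 TPM (SD, n = 2 each), 3.70-fold lower in cKO (log2 value -1.86, SE 0.28, adjusted p = 7.67e-04). The call was lost without cKO cDC1 replicate 1 (adjusted p = 0.0117) and held in the other 19 alternatives. In cDC2s the values were 71.7, 117 and 68.0 TPM in WT and 62.7, 79.4 and 93.3 TPM in cKO, which overlapped (-0.10, 95% interval -0.60 to 0.41, adjusted p = 0.80). The difference between the effects was -1.77 (SE 0.36, adjusted p = 0.0159), which was not called but passed without WT cDC2 replicate 2 (adjusted p = 0.00506). In WT the gene was 2.96-fold higher in cDC1s than in cDC2s (log2 difference 1.58, SE 0.25, adjusted p = 5.53e-04), whereas in cKO the subsets overlapped (-0.19, adjusted p = 0.580).

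In pDCs Cxcl16 measured 1.97, 2.19 and 1.66 TPM in WT and 0.95, 0.40 and 0.71 TPM in cKO, with no overlap (log2 fold change -0.81, SE 0.18, adjusted p = 0.0489, not called). Its neighbour Zmynd15 lies on the opposite strand and shares 552 exonic bases with it, 20.5% of the exonic length of Cxcl16, and whether strand was used in counting is not given in the sources used here, so reads in the shared stretch cannot be told apart. Zmynd15 measured 42.8 ± 26.1 TPM in WT and 4.68 ± 1.56 TPM in cKO cDC1s (SD, n = 2 each), below the level of Cxcl16 in both.

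Between the subsets, 6 of the 10 genes were called in WT. Cxcl9, Ccl22 and Cxcl16 were higher in cDC1s, where 10.9% of the 11411 genes were called higher, and Ccl3, Ccl9 and Ccl6 were lower, where 20.8% were called lower. The median log2 difference was -0.32 over the 10 genes and -0.17 over all genes. The difference for Ccl6 was small, 1.49-fold (log2 difference -0.55, SE 0.12, adjusted p = 0.00314), and it was lost in 6 of 19 alternatives, at -0.36 with median-of-ratios scaling, at -0.43 without WT cDC2 replicate 2, with an adjusted p of 0.0154 without WT cDC1 replicate 2 and of 0.0283, the highest, without WT cDC1 replicate 1. In cKO, 1 of the 10, Cxcl9, was higher in cDC1s, where 14.5% of all genes were called higher, and 5 were lower, Ccl3, Ccl5, Ccl6, Ccl9 and Ccl22, where 13.8% were called lower. The median was -1.47 over the 10 genes and 0.05 over all genes. Ccl5 in cKO was 6.94-fold higher in cDC2s than in cDC1s (log2 difference -2.76, SE 0.29, adjusted p = 2.87e-05), while in WT the difference of 1.57-fold (-0.79, SE 0.29, adjusted p = 0.0432) was not called, although it was without WT cDC1 replicate 1 (-1.42, adjusted p = 1.17e-04). In WT 34.4% of the calls over all genes were higher in cDC1s, and 51.4% after median-of-ratios scaling, which moved the median of all genes from -0.17 to 0.01.

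**Figure D4:**
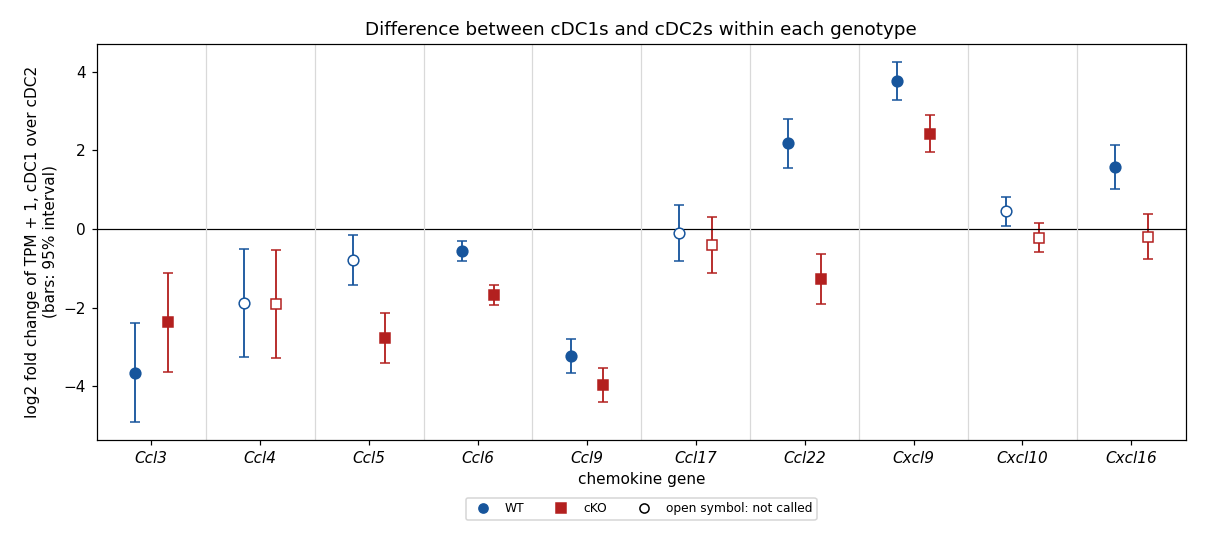
Log2 fold change of TPM + 1, cDC1 over cDC2 (y axis), for each chemokine gene (x axis) in WT and in cKO, with 95% intervals from limma as bars and filled symbols for called genes. Ccl22 lies at 2.18 in WT and at -1.27 in cKO, and Cxcl9 is above 0 in both.

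Of the 7 genes tested in pDCs, the largest log2 fold changes were those of Ccl5 (-1.77) and Cxcl16 (-0.81), and 3 of 7 values were above 0. The median was -0.25 over the 7 and -0.05 over all genes tested. With the replicate number as a block the calls over all genes rose from 119 to 335, and 0 of the 7 chemokine genes were called (adjusted p = 0.0118 for Ccl5 and 0.0324 for Cxcl16). Ccl5, Ccl22, Cxcl9 and Cxcl16 were lower in every cKO pDC library than in every WT one. How many of all genes separated in this way was not counted, so the separation describes these libraries only. Ccl22 and Cxcl9 were too low to be tested.

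**Figure D5:**
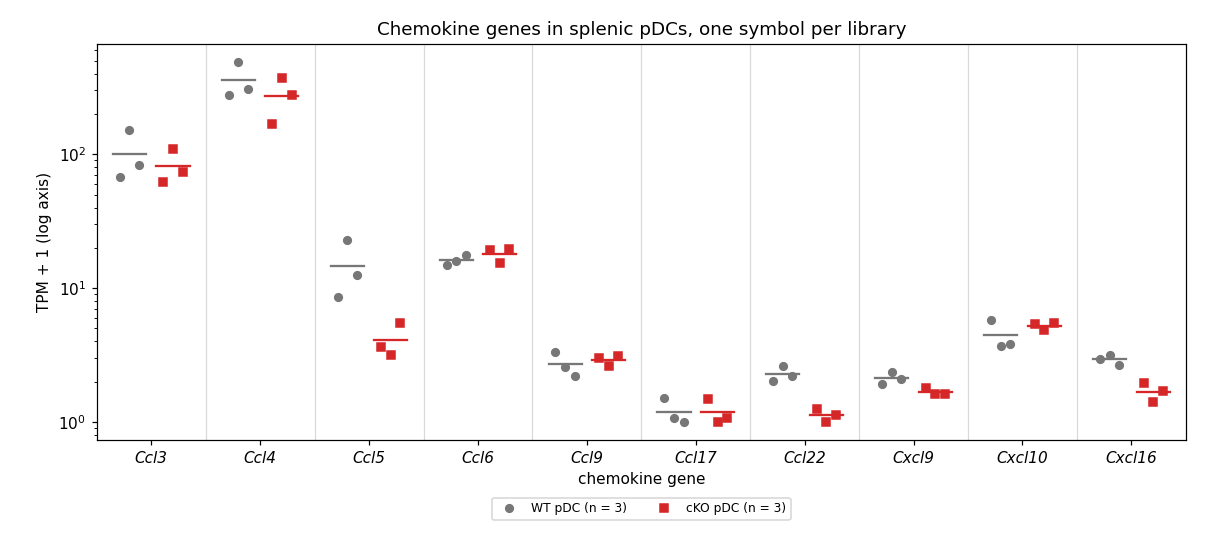
TPM + 1 on a log axis (y axis) of each chemokine gene (x axis) in WT and cKO pDCs, with 1 symbol per library and a line at the group mean. Ccl4 and Ccl3 are highest and overlap between genotypes, and the cKO symbols lie below the WT ones for Ccl5, Ccl22, Cxcl9 and Cxcl16.

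The rest of the chemokine system was sparse in these cells. Of 28 other chemokine genes on a list, 6 passed the filter in each table and 0 were called between genotypes in any subset, with 1, 1 and 2 at an unadjusted p below 0.05 by limma in pDCs, cDC1s and cDC2s. In WT cDC1s against WT cDC2s, Cx3cl1 was higher (log2 difference 1.2, adjusted p = 0.00136) and Ccl27a lower (-1.13, adjusted p = 0.00286), and in cKO the eosinophil chemokine Ccl24 was lower in cDC1s (-1.66, adjusted p = 0.00363). Of the 8 receptors and decoys of the 10 proteins, Cxcr3, the receptor of CXCL9 and CXCL10, was called lower in cKO cDC2s, where 3.56% of all genes tested were. There Cxcr3 fell from 4.87 ± 0.58 to 2.33 ± 0.73 TPM (SD, n = 3 each), with a log2 fold change of -0.84 and an adjusted p of 0.00602. It measured 162 ± 10.6 TPM in WT pDCs and 69.2 ± 6.61 TPM in WT cDC1s, so the CXCL9-expressing cDC1s carried its receptor message as well. Of 5 enzymes that trim or shed these proteins, such as DPP4, which clips CXCL9 and CXCL10, and ADAM10, which sheds CXCL16, 0 were called between genotypes, with 0 of 3 in pDCs, 2 of 5 in cDC1s and 3 of 5 in cDC2s at an unadjusted p below 0.05. The share of all genes at that unadjusted level was not counted. At an adjusted p of 0.05 by limma it was 4.55% in pDCs, 39.6% in cDC1s and 19.9% in cDC2s. The unadjusted counts are therefore not read as results about the enzymes or the other chemokine genes. Mmp12, whose enzyme can trim several chemokines, was at 201 ± 42.0 TPM in WT cDC2s (SD, n = 3) and 2.51 ± 2.34 TPM in WT cDC1s (SD, n = 2), a log2 difference of -6.01 (adjusted p = 8.25e-07).

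Of 13 transcription factors known to drive these genes, 1 was called higher and 2 lower in cKO cDC1s. Over all genes in this contrast, 15.8% were called higher and 6.56% lower. The counts are small and were not tested against those shares. Relb (log2 fold change -1.56, SE 0.22, adjusted p = 5.30e-04) and Rel (-1.72, SE 0.35, adjusted p = 0.00358) fell in cKO cDC1s, and Nfkb1 rose (0.86, SE 0.13, adjusted p = 7.32e-04). In cDC2s 1 of 13, Irf4, fell (-1.08, SE 0.19, adjusted p = 0.00400), where 3.56% of all genes did, and in pDCs 0 of 13 were called, with 0 at an unadjusted p below 0.05. Irf8 and Irf1 were not called in any subset, at means of 1737 and 1891 TPM for Irf8 and 181 and 85.7 TPM for Irf1 in WT and cKO cDC1s.

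Genes of the mature state of DCs moved in the same libraries as Ccl5, Ccl22 and Cxcl16. All 10 markers of mature DCs were called lower in cKO cDC1s, among them Ccr7 (log2 fold change -4.37), which guides DCs to the T cell zone, and Il12b, a subunit of interleukin 12, and their sum was 1855 to 2733 TPM in WT and 334 to 442 TPM in cKO. Over all genes tested, 6.56% were called lower in cKO cDC1s, 3.56% in cKO cDC2s and 0.239% in cKO pDCs. In cDC2s 2 of 10, Ccr7 and Cd83, were called lower, and 6 of 10 had an unadjusted p below 0.05 by limma. There 0 of the 10 log2 fold changes were above 0, with a median of -0.72. The sum was 1759 to 2271 TPM in WT and 1048 to 1226 TPM in cKO cDC2s. In pDCs 0 of 9 tested were called, 3 had an unadjusted p below 0.05, and the sum was 144 to 188 against 138 to 146 TPM. None of the 10 markers was at 0 in any cDC library. Relb is both a marker here and a factor above. Their part in the falls of Ccl5, Ccl22 and Cxcl16 was not tested. Of the 11 immediate-early genes, 5 were called lower in cKO cDC1s, 1 in cKO cDC2s and 0 in pDCs, where 6.56%, 3.56% and 0.239% of all genes tested were. By limma, 7 of 11 in cDC1s, 9 of 11 in cDC2s and 2 of 11 in pDCs had an unadjusted p below 0.05. The share of all genes at that unadjusted level was not counted. At an adjusted p of 0.05 by limma it was 39.6% in cDC1s, 19.9% in cDC2s and 4.55% in pDCs. The 11 immediate-early genes summed to 3762 to 4119 TPM in cKO cDC1s and 5083 to 5680 TPM in cKO cDC2s, below every WT library of its subset. Without both WT libraries with the highest sums, Ccl5 (-3.76), Ccl22 (-3.22) and Cxcl16 (-2.11) were still called lower in cKO cDC1s. In cDC1s the 14 monocyte and macrophage markers summed to 553 to 758 TPM in WT and 423 to 433 TPM in cKO. Csf1r and Ly6c2 were called higher and Vcam1 and Spic lower, where 15.8% of all genes tested were called higher and 6.56% lower.

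Over the 10 cDC libraries, each gene called in at least 1 contrast was matched to the genes of the table whose centred log2(TPM + 1) differed least from its own, by the root mean square difference. For Ccl5 these were Mreg (0.38) and Apoe (0.38). Mreg, which encodes melanoregulin, was at 66.2 ± 13.6 and 5.50 ± 1.28 TPM in WT and cKO cDC1s and at 165 ± 14.6 and 68.1 ± 4.32 TPM in WT and cKO cDC2s, an order of groups close to that of Ccl5. For Ccl22 the nearest were Scube3 (0.33) and Zmynd15 (0.39), for Cxcl16 Dscaml1 (0.19) and Atxn1 (0.22), and for Cxcl9 Cst3 (0.25) and Lima1 (0.26). Cst3, the cystatin C gene, was at a mean of 17896 TPM in WT cDC1s and 1629 TPM in WT cDC2s. The myeloid genes Tarm1 (0.21) and Csf3r (0.22) were nearest to Ccl9, Gpr183 (0.37) and Il1r2 (0.48) to Ccl3, Gdf15 (0.18) and Sqor (0.18) to Ccl6, and Pip4p2 (0.16) and C1qtnf12 (0.20) to Cxcl10. The differences depend on each gene's own spread over the libraries, an SD of 0.34 for Cxcl10 and 1.42 for Ccl5. They are therefore not comparable between the chemokine genes. Scube3, Atxn1, Gdf15 and Tarm1 had means of 0.325, 0.37, 0.185 and 0.195 TPM in cKO cDC1s, close to or below the counting limit given above. The matches describe 10 libraries that share their groups, and carry no test.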

How the data were processed

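RNA-seq of sorted splenic pDCs, cDC1s and cDC2s was analysed in 16 libraries, grouped by GEO's labels. Reads of 50 bases, single-end, were filtered with SOAPnuke by the authors. They were mapped with Bowtie2 2.2.5 and quantified with RSEM 1.2.12, and the deposited values are TPM and FPKM, made by the authors in separate pDC and cDC tables. The submitters' processing notes also name HISAT2 2.0.4 and mm10. The transcript reference and the use of strand are not given in the sources used here. All 32 value columns were mapped to samples.

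The main fit was limma 3.58.1 (R 4.3.3) on log2(TPM + 1), with a mean-variance trend, in place of the DESeq2 of the study because TPM values are not counts. Genes with a mean of at least 1 TPM entered, 11299 of 17128 in pDCs and 11411 of 17721 in cDCs, and two-sided p-values were adjusted over all of them by the Benjamini-Hochberg method. The fit was tested on simulated data. Of 100 genes changed by 1 log2 unit, 68 were called in pDCs, 62 in cDC1s and 74 in cDC2s. Of 100 changed by 2 log2 units, 89, 97 and 97 were called. A gene that was not called may therefore still differ by such an amount. Only these genes were changed in each simulation, with independent normal noise. In the real cDC1 contrast 2555 genes were called, so the adjustment of p-values differs and the recovery there may differ too. The 6 pDC libraries were fitted alone, and the 10 cDC libraries as 4 group means that share a spread. Adjusted p-values measure only the spread between these libraries, which may be in part technical. Gene names came from RefSeq (GRCm38.p6) for 17079 and 17667 gene IDs. The depth, about 17880000 to 20100000 reads, was estimated from the steps of low values.

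Replicate numbers were checked as pairs by the correlation of deviations from the group means. In pDCs the same-numbered libraries correlated at 0.31, 0.39 and 0.21 and all others below 0. Deviations within a group sum to 0, so values above 0 for some pairs push others below 0. The check therefore cannot settle whether the numbers pair the pDC libraries, and the labels do not say so. The main fit did not use the numbers. In cDCs the same-numbered libraries correlated on both sides of 0. The alternatives were no filter, a pseudocount of 0.1, median-of-ratios and quantile scaling, FPKM, no trend, an adjusted p of 0.05 with no fold limit, a replicate block, each library left out, and each cDC subset fitted alone. Leaving out both WT libraries with high immediate-early genes was added after seeing the data. The 10 genes, the gene lists and the tests were chosen with earlier results of these data known, and all 10 genes are named. Genes like a member were the 2 nearest for each member called in a cDC contrast, and listed genes were named where called, at most 5 per contrast. Marker genes quoted beside results were chosen after their values were seen. Python 3.11.15 with numpy 2.4.6, pandas 2.3.3 and matplotlib 3.10.9 made the summaries and figures.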

Additional observations from a re-analysis of the deposited data

Results flagged for a closer look

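The response to genotype differed between the cDC subsets for 2 of the 10 chemokine genes, by limma's test of the cDC1 effect minus the cDC2 effect, in which 1.35% of all genes were called lower and 1.21% higher. For Ccl22 the difference was -3.45 on the log2 scale (SE 0.40, adjusted p = 0.00102), with 2 of 2 cKO cDC1 libraries below both WT ones and cDC2 libraries that overlapped. For Ccl6 it was -1.13 (SE 0.17, adjusted p = 0.00368), with 3 of 3 cKO cDC2 libraries above all WT ones and 2 of 2 cKO cDC1 libraries below both WT ones. The Ccl6 call was lost in 7 of 19 alternatives, among them leaving out any cDC1 library, with an adjusted p of 0.0297 at most. No group held more than 3 libraries, so single libraries were not tested for standing apart.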

How the results depend on the processing

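Of 1068 recomputed values, 976 kept their direction and side of the threshold, 37 fell below it, 28 passed it and 27 turned in sign. Some could not change direction, since leaving out a library outside a contrast, or loosening the threshold, leaves the log2 value as it was. With an adjusted p of 0.05 and no fold limit, 2 chemokine genes passed in pDCs, 4 in cDC2s and 5 for the difference between the effects, against 0, 2 and 2, where 4.55%, 19.9% and 11.3% of all genes tested passed, and with no filter on low values 1 passed in cDC2s. Leaving out 1 library at a time gave 1 to 3 calls in cDC2s and 1 to 3 for the difference. Values that turned in sign were of genes not called. Cxcl10 in cDC1s was -0.086 with median-of-ratios and -0.10 with quantile scaling. Ccl17 in cDC2s was 0.0082 and 0.10 with the same scalings, and Ccl17 between WT subsets 0.046 and 0.23. Ccl4 for the difference was 0.60 without both libraries with high immediate-early genes. With 1 library left out, the log2 values ran from -0.49 to 0.083 for Ccl3 and from -0.0054 to 0.29 for Ccl9 in pDCs. In cDC1s they ran from -0.58 to 1.47 for Ccl3, from -0.34 to 0.19 for Ccl9 and from -0.14 to 0.31 for Cxcl10. In cDC2s they ran from -0.30 to 0.15 for Ccl17 and from -0.24 to 0.15 for Cxcl16, for the difference from -1.16 to 1.12 for Ccl4, and between WT subsets from -0.35 to 0.12 for Ccl17. The cause was not tested.

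With the replicate block, Ccl17 between WT subsets was 0.11. The block, which pairs cDC libraries by number only, left 4 of 6 calls between cKO subsets (Ccl3 at an adjusted p of 0.0195 and Ccl22 at 0.0147 were lost) and changed no other call on the 10 genes. With 2 libraries per cDC1 group, the spread rests largely on the other groups. At this depth 1 TPM on a transcript of 1 kb corresponds to 7.83 to 10.4 reads.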
